A study of Mus musculus with 78 samples.

Results

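Angptl4 and 6 genes of lipoprotein lipase handling and triglyceride storage were followed through mouse kidney. Angptl4, Lpl, Gpihbp1, Lmf1, Vldlr, Plin2 and Pnpla2 were taken by gene symbol from tables of 24499 genes, and all 7 were found. The set was chosen by its measured difference, in these same libraries, between the effect of tetrachloroethylene on a high-fat and on a low-fat diet. That difference is therefore given as a description, with no test. All 7 genes passed the filter on low counts in both dosing regimens, with 14280 genes tested in the single regimen and 14614 in the repeated one.

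The kidneys came from male mice of the inbred strain C57BL/6J. For 8 weeks they ate a high-fat diet with 31% fat (HFD), a diet without methionine, choline and folate (MCD) or a low-fat diet with 4% fat (LFD). Tetrachloroethylene (PERC), a chlorinated dry-cleaning solvent, was given at 300 mg/kg per day, and controls received the vehicle, 5% Alkamuls-EL620 in saline at 5 mL/kg. Mice of the single regimen died 24 h after 1 PERC dose, and mice of the repeated regimen died 4 h after the last of 5 daily doses of PERC or vehicle. For the vehicle mice of the single regimen, the sources used here give no time of death. Libraries used in the repeated regimen numbered 8 PERC and 8 vehicle on HFD, 8 and 7 on MCD, and 9 and 7 on LFD. In the single regimen they numbered 5 PERC and 4 vehicle on HFD, 4 and 3 on MCD, and 4 and 5 on LFD.

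Lipoprotein lipase, the product of Lpl, releases fatty acids from the triglyceride of circulating lipoproteins at the capillary wall. Lmf1 encodes an endoplasmic reticulum factor the enzyme needs to mature, and Gpihbp1 encodes the endothelial protein that carries it to the capillary lumen and holds it there. ANGPTL4 inactivates the enzyme, and the VLDL receptor takes up triglyceride-rich particles. Inside cells, PLIN2 coats lipid droplets and ATGL, the product of Pnpla2, starts the breakdown of stored triglyceride. Angptl4 and Plin2 are known targets of the fatty acid receptor PPARA, and Angptl4 is also known to respond to hypoxia and to glucocorticoids.

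The 72 libraries held 8556278 to 42022166 counts in genes, and 5 single-regimen libraries with 2267 to 22029 counts were left out. Of the markers that check the tissue, 9 proximal tubule markers summed to 16154 to 50623 counts per 1000000 counts in genes (CPM) and 7 distal nephron markers to 6571 to 9976 CPM, while 5 podocyte markers summed to 436 to 570.0 CPM and 5 skeletal muscle markers summed to at most 0.873 CPM. Adipocyte markers, 11 genes, summed to between 109 and 758 CPM, with none of the 11 at 0 in every library. The library labelled LFD PERC replicate 4 of the repeated regimen went against its label. Its level of Cyp4a14, a fatty acid hydroxylase gene and PPARA target whose close relatives make its counts uncertain, was 121 CPM, inside the 57.5 to 180.5 CPM of the LFD vehicle libraries, against 895 to 7338 CPM in the other 8 LFD PERC libraries. The repeated LFD effects of the 7 genes, the differences from them, the counts of calls and the correlations with group means removed are given with and without it. Marker sums, medians of gene lists and likeness to Angptl4 include it. Cyp4a14 was looked at library by library only in LFD mice of the repeated regimen, so labels of the other libraries were not checked in this way. The regimens share no sequencing lane, so a difference in level between them cannot be told apart from a lane difference. Their PERC mice differ both in number of doses and in time from the last dose to death (24 h or 4 h). The parts of these in any difference between regimens cannot be told apart.

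On GRCm38 with the GENCODE M21 annotation, no other annotated gene overlaps any of the 7. Angptl4 lies at chr17:33773750-33781830 on the minus strand and Lmf1 on the same chromosome at chr17:25579085-25662826 on the plus strand. Lpl lies at chr8:68880491-68907448 (plus), Gpihbp1 at chr15:75596628-75599481 (plus) and Vldlr at chr19:27216484-27254231 (plus). Plin2 lies at chr4:86648386-86670060 (minus) and Pnpla2 at chr7:141455198-141460743 (plus). The counts cover the whole gene, so exons and untranslated regions were not separated.

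Angptl4, the gene of the lipase inhibitor, was higher with PERC in all 6 comparisons and passed the test in 3 of them. After 5 doses it was 3.65-fold higher with PERC in HFD mice and 3.11-fold higher in MCD mice, while in LFD mice it was 1.27-fold higher and did not pass the test. After a single dose it was 2.15-fold higher in HFD mice, 2.18-fold in MCD mice and 3.93-fold in LFD mice, and among these the LFD value alone passed. In whole kidney, fewer cells of a type and less RNA per cell cannot be told apart.

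After 5 doses Angptl4 in HFD mice had a lowest, median and highest level of 122, 150.4 and 294 CPM with PERC, against 35.6, 45.1 and 66.5 CPM with vehicle. All 8 PERC libraries lay above all 8 vehicle libraries. The log2 fold change was 1.87 (SE 0.21, edgeR quasi-likelihood F test, adjusted p = 2.07e-08). In MCD mice the levels were 95.8, 178 and 229 CPM with PERC, against 35.4, 49.4 and 73.4 CPM with vehicle, and again the groups did not overlap. There it was 1.64 (SE 0.21, edgeR adjusted p = 8.92e-07). In LFD mice the levels were 57.4, 114.9 and 159 CPM with PERC, against 63.5, 82.8 and 114 CPM with vehicle. These groups overlapped, and the log2 fold change of 0.34 (SE 0.20) had an edgeR adjusted p of 0.349. Without the library that went against its label, which is the one at 57.4 CPM, it was 0.43 (SE 0.20, edgeR adjusted p = 0.158). Within each of the 5 lanes, mean log2 levels with PERC minus vehicle ran from 1.36 to 2.44 on HFD and from 0.81 to 2.2 on MCD. On LFD they ran from -0.48 to 0.63, above 0 in 4 of 5 lanes.

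**Figure D1:**
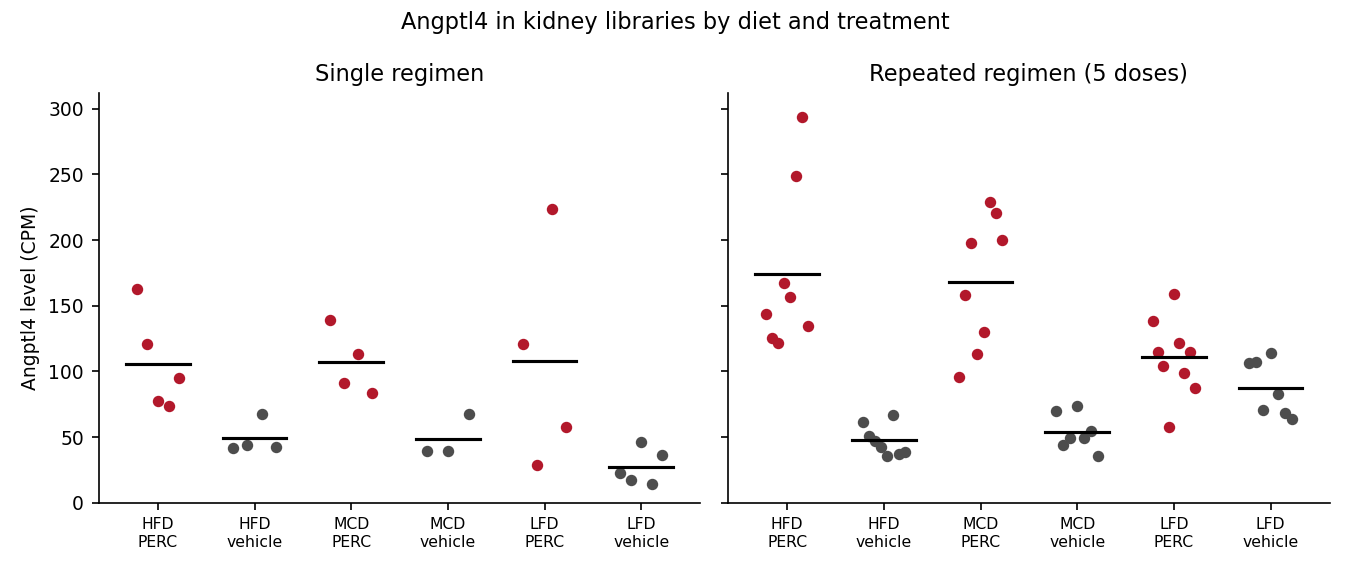
Angptl4 level in CPM (linear axis from 0) in each of the 72 libraries, by diet and treatment, single regimen on the left and repeated on the right. Points are libraries and bars group means. In the repeated regimen the HFD PERC libraries (122 to 294 CPM) and MCD PERC libraries (95.8 to 229 CPM) lie above their vehicle libraries, and the LFD vehicle libraries (63.5 to 114 CPM) lie higher than the HFD vehicle ones (35.6 to 66.5 CPM), with 1 HFD library inside their range.

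After a single dose, the 4 LFD PERC libraries held 28.7, 57.8, 121 and 224 CPM of Angptl4, against 14.2, 17, 22.9, 36.6 and 46.6 CPM in the 5 vehicle libraries. Of the PERC libraries, 3 lay above every vehicle library and 1 lay among them. The log2 fold change was 1.97 (SE 0.43, edgeR adjusted p = 0.0260). This call rests on few libraries. Without PERC replicate 4, the one at 224 CPM, it was 1.32 (edgeR adjusted p = 0.306). It was also lost without PERC replicate 1 and without vehicle replicate 1, 2 or 4, where the log2 fold change was 1.81 to 1.92. With only the 2 groups compared it was 1.97 (edgeR adjusted p = 0.491), and with adipocyte marker level as a covariate it was 1.65 (edgeR adjusted p = 0.105). LFD PERC replicate 1, at 121 CPM of Angptl4, had the highest adipocyte marker sum of all libraries, 758 CPM, against 167 to 256 CPM in the LFD vehicle libraries.

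The 5 HFD PERC libraries of the single regimen held 73.7, 77.6, 94.8, 121 and 163 CPM, against 41.8, 42.6, 44.2 and 67.7 CPM in the 4 vehicle libraries. The groups did not overlap, yet the log2 fold change of 1.11 (SE 0.43) did not pass over all genes (edgeR adjusted p = 1.0, unadjusted p = 0.0174). The 4 MCD PERC libraries held 83.4, 91.5, 113.3 and 139.1 CPM, against 39.1, 39.6 and 67.9 CPM in the 3 vehicle libraries. These did not overlap either, with a log2 fold change of 1.12 (SE 0.49, edgeR adjusted p = 0.955, unadjusted p = 0.0332). In all 3 lanes Angptl4 was higher with PERC on HFD (0.64 to 1.96, log2) and on MCD (0.30 to 1.81), and in 2 of 3 lanes on LFD (-0.69 to 2.61).

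The difference that chose the set, the PERC effect in HFD minus that in LFD mice, was 1.53 for Angptl4 in the repeated regimen (log2, SE 0.28) and -0.87 in the single regimen (SE 0.60). By size it ranked 34th among the 14614 genes of the repeated regimen and 532nd among the 14280 of the single regimen. The repeated difference is the difference among PERC libraries less that among vehicle libraries. Among PERC libraries HFD minus LFD was 0.65, and among vehicle libraries it was -0.87, so the vehicle libraries made up the larger share of the difference. For single-regimen libraries HFD minus LFD was -0.015 among PERC libraries and 0.85 among vehicle libraries. Without the LFD PERC library that went against its label, the repeated difference was 1.44 (SE 0.27). Without LFD PERC replicate 4 of the single regimen, the library at 224 CPM, the single difference was -0.21. The tests of PERC within HFD and within LFD share their libraries with this difference and are not independent of it.

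The diet difference among vehicle mice does not involve the PERC libraries, although those vehicle libraries do enter the difference above. After 5 doses of vehicle the HFD libraries had 35.6, 45.1 and 66.5 CPM of Angptl4 (lowest, median, highest), against 63.5, 82.8 and 114 CPM in LFD vehicle libraries. The LFD PERC library that went against its label, at 57.4 CPM, was not counted among these, and no fit placed it there. Of the 8 HFD libraries, 7 lay below every library labelled LFD vehicle, and the log2 fold change was -0.87 (SE 0.21, edgeR adjusted p = 0.00501). In MCD vehicle libraries, at 35.4, 49.4 and 73.4 CPM, it was -0.70 (SE 0.21, edgeR adjusted p = 0.0573). With lane as a covariate the HFD value was -0.95 (edgeR adjusted p = 0.000882). Single-regimen vehicle libraries had the opposite signs: 0.85 (SE 0.43, edgeR adjusted p = 0.507) for HFD and 0.82 (SE 0.46, edgeR adjusted p = 0.900) for MCD against LFD. Adipocyte markers moved with diet too. Among repeated vehicle libraries 6 of 11 were called higher on HFD than on LFD, beside 6.64% of all genes called in either direction. On MCD 4 of these 11 markers were called higher than on LFD, beside 3.48%. Their part in the Angptl4 difference was not tested apart from the covariate fit, in which the HFD value was -0.91 (edgeR adjusted p = 0.0218). Of 6 brown adipocyte markers, 4 (Ucp1, Elovl3, Cox8b and Cidea) were called higher on HFD and on MCD than on LFD in the same vehicle libraries, with list medians of 3.74 and 3.57 (log2). Their sum ran from 7.99 to 80.7 CPM on HFD and from 7.75 to 70.3 CPM on MCD, against 7.55 to 11.7 CPM on LFD, so the ranges overlapped at their low ends. Their part was not tested.

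The MCD minus LFD difference of the PERC effect was not used to choose the genes. For Angptl4 it was 1.30 in the repeated regimen (log2, SE 0.29, edgeR adjusted p = 0.224, unadjusted p = 4.60e-05) and -0.85 in the single regimen (SE 0.64, edgeR adjusted p = 0.998), or -0.20 there without LFD PERC replicate 4. Without the library that went against its label, the repeated value was 1.21 (SE 0.28, edgeR adjusted p = 0.101). After 5 doses edgeR called none of the tested genes in this comparison, a background of 0%. DESeq2 called 1 of the 7, giving Angptl4 an adjusted p of 0.0281. It shares the LFD libraries with the HFD difference. None of the 7 genes was called in it by edgeR in either regimen, with 1 at an unadjusted p under 0.05 in the repeated and 0 in the single regimen, where the background was also 0% and DESeq2 called 0.

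**Figure D2:**
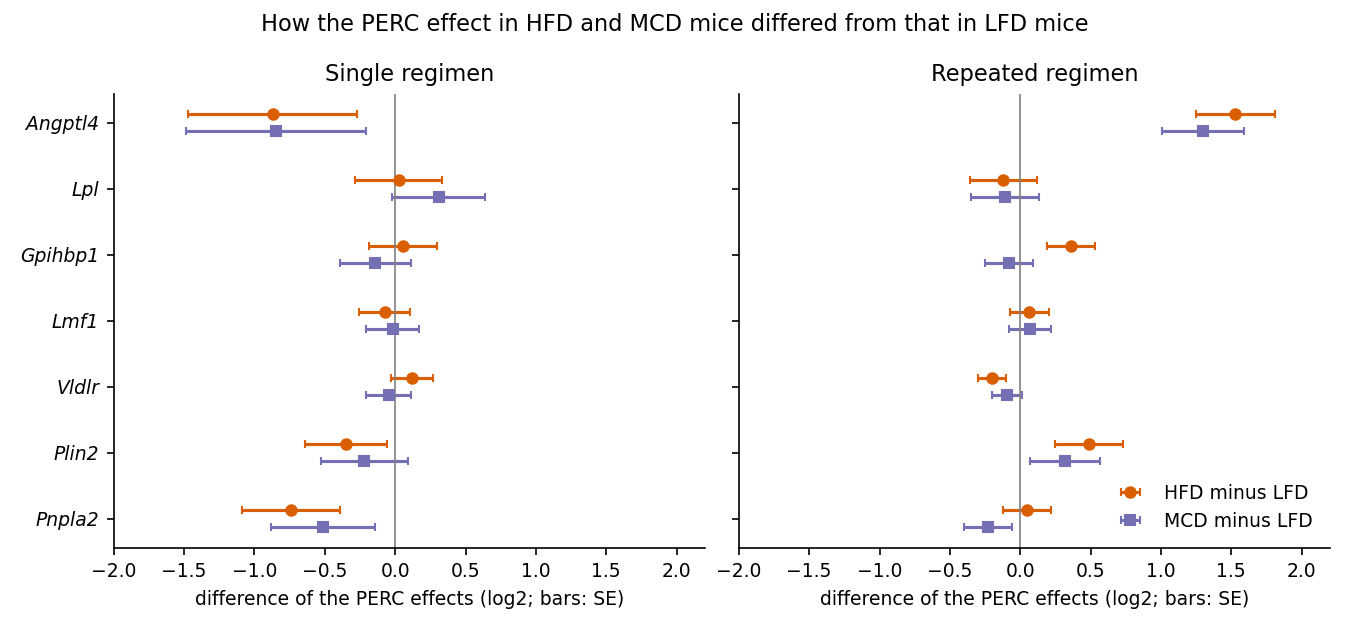
Difference of the PERC effect, HFD minus LFD and MCD minus LFD, for the 7 genes in log2 units, with bars of 1 SE either side, single regimen on the left and repeated on the right. The HFD minus LFD values chose the genes and are a description. Angptl4 lies at 1.53 and 1.30 in the repeated regimen and at -0.87 and -0.85 in the single one.

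Over Angptl4's 12 groups, mean levels ran from 27.5 ± 13.7 CPM (SD, n = 5) in LFD vehicle libraries of the single regimen to 174 ± 62.9 CPM (SD, n = 8) in HFD PERC libraries of the repeated regimen. In ascending order the groups between them were HFD vehicle repeated, MCD vehicle single, HFD vehicle single, MCD vehicle repeated, LFD vehicle repeated, HFD PERC single, MCD PERC single, LFD PERC single, LFD PERC repeated and MCD PERC repeated. The range of every group overlapped that of its neighbour in this order. All 6 PERC groups stood above all 6 vehicle groups in mean level.

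Lpl, the lipase itself, was lower with PERC in every diet and regimen, by 0.42 to 0.77 on the log2 scale. Only the repeated HFD comparison passed the test on its own. HFD PERC libraries of the repeated regimen held 412, 552 and 841 CPM of Lpl (lowest, median, highest), against 579.9, 816 and 1310.2 CPM with vehicle. The ranges overlapped, and the log2 fold change was -0.54 (SE 0.17, edgeR adjusted p = 0.0334). In MCD mice the levels were 429, 532 and 873 CPM with PERC, against 644, 787 and 1077 CPM with vehicle, also overlapping. The log2 fold change was -0.53 (SE 0.17, edgeR adjusted p = 0.0656), and it was called with lane as a covariate (edgeR adjusted p = 0.0300). In LFD mice they were 494, 682 and 1024 CPM with PERC, against 814, 895 and 1259 CPM with vehicle, with the library that went against its label at 1024 CPM. The log2 fold change was -0.42 (SE 0.17, edgeR adjusted p = 0.128), and without that library -0.51 (edgeR adjusted p = 0.0389). The HFD call was kept in 10 of 16 leave-outs. It was lost without PERC replicate 1, 5, 6 or 7 or vehicle replicate 1 or 3, and furthest without vehicle replicate 3, the library at 1310.2 CPM (-0.42, edgeR adjusted p = 0.109). It was also lost when the 2 HFD groups were fitted alone (edgeR adjusted p = 0.0912).

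After a single dose, HFD PERC libraries held 464, 511, 720.0, 732 and 1226 CPM of Lpl, against 1032, 1055, 1291 and 1503 CPM with vehicle. In HFD, 4 of 5 PERC libraries lay below every vehicle library and the fifth lay among them. MCD PERC libraries held 662, 724, 726 and 857 CPM, against 905, 909 and 1229.6 CPM with vehicle. LFD PERC libraries held 652, 660.2, 724 and 889 CPM, against 897, 1082, 1223, 1303 and 1712 CPM with vehicle. In MCD and in LFD the groups did not overlap. None passed over all genes: the log2 fold changes were -0.75 (SE 0.22, edgeR adjusted p = 0.672) in HFD, -0.46 (SE 0.25, edgeR adjusted p = 0.999) in MCD and -0.77 (SE 0.22, edgeR adjusted p = 0.130) in LFD mice. Within lanes, Lpl was lower with PERC in every diet, in all 3 lanes of the single and all 5 of the repeated regimen.

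Because the direction of Lpl was shared over the diets, the mean of the 3 diet-wise PERC effects was tested as well. This comparison was added after the values were seen. Lpl fell by 0.66 (log2, SE 0.13, edgeR adjusted p = 0.00912) after a single dose and by 0.50 (SE 0.10, edgeR adjusted p = 0.000134) after 5 doses, and each call was kept whichever library was left out. With the low-depth libraries kept, the single value was -0.62 (edgeR adjusted p = 0.0540). With 1 dose this mean test also called Angptl4 and Plin2 higher, 3 of 7 members against a background of 1.37% of genes called. In the repeated regimen it called Angptl4, Plin2 and Pnpla2 higher besides Lpl lower, 4 of 7 against 24.5%. Without the library that went against its label, the repeated mean for Lpl was -0.53 (edgeR adjusted p = 3.77e-05) and the same 4 genes were called. The mean shares its HFD and LFD libraries with the difference that chose the set.

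The summed level of proximal tubule markers was lower alongside Lpl, although edgeR called none of the 9 with repeated PERC in HFD mice (4 at an unadjusted p under 0.05, 0 by DESeq2) or in MCD mice (1 and 0). In LFD mice it called 2 of 9 lower, Lrp2 and Kap. For the mean of the 3 diet-wise effects after 5 doses it called 5 of 9 lower and 1 higher, and 6 lower and 1 higher without the library that went against its label. Of all genes, with all libraries used, 9.18% were called in HFD, 5.10% in MCD and 6.91% in LFD mice, and 24.5% in that mean. For the mean, Kap had a log2 fold change of -0.80 (SE 0.18, edgeR adjusted p = 0.000962) and Lrp2, the megalin gene, one of -0.23 (SE 0.054, edgeR adjusted p = 0.00122). After 5 doses their sum had a lowest, median and highest level of 16154, 35801 and 41291 CPM with PERC in HFD mice, against 39071, 46441 and 50314 CPM with vehicle. In LFD mice it was 17229.9, 22460.3 and 40235 CPM with PERC, against 34949, 38859 and 42898 CPM with vehicle, with the library that went against its label at 40235 CPM and the next highest PERC library at 36146 CPM. Over the 47 repeated libraries, after group means were removed, Lpl had a Pearson r of 0.62 with this sum and Plin2 one of -0.66 (0.58 and -0.64 without the library that went against its label). Over the 25 single-regimen libraries these were 0.47 and 0.37, so that Plin2 had the opposite sign there. These are descriptions over libraries that also share lanes. The most abundant marker was Kap, the kidney androgen-regulated protein gene, at a mean of 16826 CPM in HFD PERC and 28176 CPM in HFD vehicle libraries. Kap was thus a large part of the sum, and the sum and the correlations with it weigh this gene most. The part of tubule RNA in the Lpl difference was not tested.

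**Figure D3:**
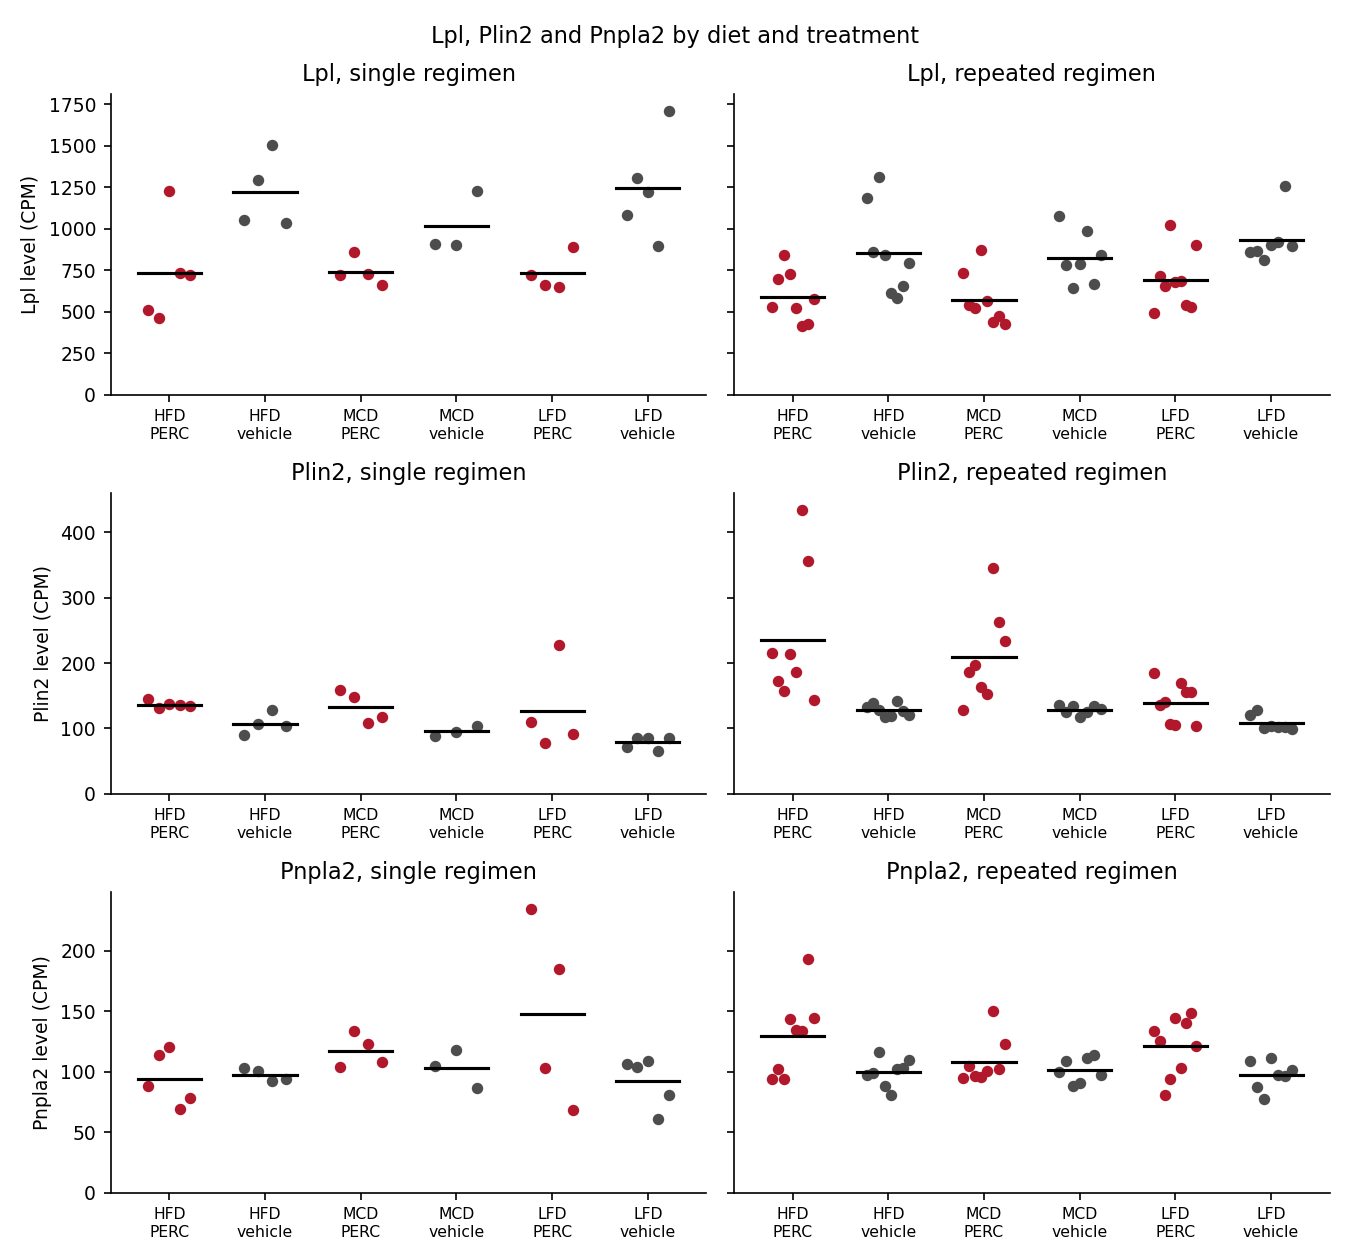
Levels of Lpl, Plin2 and Pnpla2 in CPM (linear axes from 0) in each library, by diet and treatment, with group means as bars. Mean Lpl is lower with PERC than with vehicle on every diet, Plin2 is higher with a wide upper spread in the repeated HFD and MCD PERC groups (up to 435 CPM), and Pnpla2 spreads most in the LFD PERC group of the single regimen (68.6 to 235 CPM).

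Gpihbp1 and Lmf1, which carry and mature the lipase, were not called in any comparison. Gpihbp1 ranged from 5.29 to 11.6 CPM over the 72 libraries. Its PERC effect in the repeated regimen was 0.15 (log2, SE 0.12, edgeR adjusted p = 0.498) in HFD mice, -0.28 (SE 0.12, edgeR adjusted p = 0.209) in MCD mice and -0.20 (SE 0.12, edgeR adjusted p = 0.344) in LFD mice. As a description, HFD minus LFD was 0.36 (SE 0.17). Without the library that went against its label, the LFD effect was -0.23 (SE 0.12, edgeR adjusted p = 0.231) and HFD minus LFD 0.39. The sum of 12 endothelial markers, the cells that make GPIHBP1, ranged from 622 to 1013 CPM. Lmf1 ranged from 16 to 37.8 CPM, with repeated PERC effects of 0.0078 in HFD, 0.011 in MCD and -0.057 in LFD mice (-0.074 without that library), each with an SE of 0.10 or 0.11.

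Vldlr, the receptor gene, was the steadiest: its 12 group means lay between 135.7 and 156 CPM, and single libraries between 121 and 187 CPM. Its PERC effects in the repeated regimen were -0.10 (log2, SE 0.073) in HFD, 0.0064 (SE 0.076) in MCD and 0.10 (SE 0.074) in LFD mice, and none passed (edgeR adjusted p = 0.495, 0.981 and 0.480). Without the library that went against its label, the LFD value was 0.12 (SE 0.075, edgeR adjusted p = 0.329). In the single regimen they ran from -0.10 in MCD to 0.055 in HFD mice. Missing the threshold does not show that the level was the same.

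Plin2, the droplet coat, rose with PERC in the repeated regimen on HFD and on MCD. HFD PERC libraries held 143.8, 200.4 and 435 CPM (lowest, median, highest), against 118.2, 127.3 and 142.6 CPM with vehicle, and the groups did not overlap. Its log2 fold change was 0.87 (SE 0.17, edgeR adjusted p = 0.000480). MCD PERC libraries held 127.7, 192 and 346 CPM, against 117.8, 129.7 and 135.4 CPM with vehicle, and only the lowest PERC library lay among the vehicle ones. Its log2 fold change was 0.69 (SE 0.18, edgeR adjusted p = 0.0129). This call was lost without MCD PERC replicate 6, the library at 346 CPM, where it was 0.55 (edgeR adjusted p = 0.0538). LFD PERC libraries held 103, 140.1 and 185 CPM, against 98.5, 103 and 128.96 CPM with vehicle, an overlap. There the log2 fold change was 0.38 (SE 0.17, edgeR adjusted p = 0.199), and 0.42 without the library that went against its label (edgeR adjusted p = 0.117). As a description, HFD minus LFD was 0.49 (SE 0.24), or 0.45 without that library: HFD PERC libraries stood 0.75 above LFD PERC libraries, and HFD vehicle libraries 0.26 above LFD vehicle libraries. By lane, mean log2 Plin2 levels with PERC minus vehicle ran from 0.26 to 1.55 on HFD and from 0.19 to 1.27 on MCD. On LFD, with all libraries used, they ran from -0.081 to 0.60, above 0 in 4 of 5 lanes. Lane 7 gave the highest value on each diet. It also held the highest HFD and MCD PERC libraries, at 435 and 346 CPM.

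After a single dose Plin2 was 131.2, 133.7, 135.9, 136.7 and 144.4 CPM in HFD PERC libraries, against 90.2, 103.8, 107.2 and 127.9 CPM with vehicle, without overlap. MCD PERC libraries held 108.4, 117.7, 147.5 and 159 CPM, against 88.3, 95 and 104 CPM with vehicle, also without overlap. LFD PERC libraries held 77.5, 92, 109 and 227 CPM, against 65.4, 71.2, 84.7, 85.4 and 85.8 CPM with vehicle, and 3 of the 4 lay above every vehicle library. None passed on its own, with log2 fold changes of 0.34 (edgeR adjusted p = 1.0), 0.47 (edgeR adjusted p = 0.999) and 0.69 (edgeR adjusted p = 0.157) in HFD, MCD and LFD mice. Their mean of 0.50 (SE 0.13) was called (edgeR adjusted p = 0.0491), but kept in only 5 of 25 leave-outs. Among vehicle libraries of the single regimen, HFD (0.47, SE 0.21) and MCD (0.28, SE 0.23) lay wholly above LFD without passing (edgeR adjusted p = 0.399 and 1.0).

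Pnpla2, the gene of the triglyceride lipase ATGL, rose with PERC in the repeated HFD comparison, although HFD minus LFD, as a description, was 0.051 (log2, SE 0.17), or 0.01 without the library that went against its label. HFD PERC libraries held 93.7, 134 and 193 CPM, against 80.8, 101 and 116 CPM with vehicle, and the groups overlapped. The log2 fold change was 0.38 (SE 0.12, edgeR adjusted p = 0.0361), a call kept in 7 of 16 leave-outs. It was lost without PERC replicate 4, 5, 6, 7 or 8 or vehicle replicate 1, 2, 4 or 5. Without PERC replicate 7, the library at 193 CPM, the change was 0.27 (edgeR adjusted p = 0.152). With adipocyte marker level as a covariate it was 0.34 (edgeR adjusted p = 0.0538). Within lanes, mean log2 levels with PERC minus vehicle ran from -0.24 to 0.72 on HFD, above 0 in 3 of 5 lanes. In LFD mice the levels were 80.5, 125.6 and 149.03 CPM with PERC, against 77.2, 97.6 and 111 CPM with vehicle. Its log2 fold change there was 0.33 (SE 0.12, edgeR adjusted p = 0.0942), 0.37 without the library that went against its label (edgeR adjusted p = 0.0399), and 0.12 with the adipocyte covariate. In MCD mice it was 0.092 (SE 0.12). In the single regimen, LFD PERC libraries held 68.6, 103, 185 and 235 CPM, against 60.9, 81, 104, 107 and 109 CPM with vehicle, and the highest was the library with 758 CPM of adipocyte markers. Over the 25 single-regimen libraries, with group means removed, Pnpla2 and the adipocyte marker sum had a Pearson r of 0.62.

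The promoters of the droplet genes are shown because Plin2 and Pnpla2 were both called higher with repeated PERC in HFD mice. The windows are RefSeq sequence on GRCm38.p6, 250 bases before to 50 after the annotated start, and 4 of the 7 genes (Plin2, Pnpla2, Lmf1 and Vldlr) had an entry. Capitals mark the nuclear receptor half-site AGGTCA, of which a PPARA element holds a pair, and the hypoxia element core ACGTG, each searched on both strands. Plin2 lies in chr4:86670010-86670309 (minus) and Pnpla2 in chr7:141454938-141455237 (plus).
Plin2: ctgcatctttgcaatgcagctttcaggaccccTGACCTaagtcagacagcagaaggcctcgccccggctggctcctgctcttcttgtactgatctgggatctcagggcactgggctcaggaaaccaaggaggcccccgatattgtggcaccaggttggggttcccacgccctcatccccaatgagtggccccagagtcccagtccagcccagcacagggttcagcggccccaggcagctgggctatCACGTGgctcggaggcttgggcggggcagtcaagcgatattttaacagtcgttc
Pnpla2: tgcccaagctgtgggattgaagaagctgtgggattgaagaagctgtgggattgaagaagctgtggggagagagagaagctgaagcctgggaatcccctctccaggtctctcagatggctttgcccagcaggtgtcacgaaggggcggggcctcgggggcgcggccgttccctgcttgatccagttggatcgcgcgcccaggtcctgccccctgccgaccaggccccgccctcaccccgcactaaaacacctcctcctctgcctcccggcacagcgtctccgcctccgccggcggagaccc
The Plin2 window held 1 half-site, read on the opposite strand, and the core in CACGTG, a palindrome that matches on both strands and so counts as 2 overlapping matches. The Pnpla2, Lmf1 and both Vldlr windows held neither. Of 32851 promoters of the same length, 16.3% held the half-site and 19.6% the core, and 0.0396% held the direct repeat of the half-site with a gap of 1 base, which no member's window held. A match is a string of letters and not a bound site.

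Counted together, edgeR called 4 of the 7 genes with PERC in repeated HFD mice, 3 higher (Angptl4, Plin2, Pnpla2) and 1 lower (Lpl), against a background of 9.18% of genes called. In repeated MCD mice it called 2 higher, Angptl4 and Plin2, against 5.10%. In repeated LFD mice it called none, against 6.91%, with 3 genes at an unadjusted p under 0.05 and 0 by DESeq2, and 2 without the library that went against its label (Lpl lower, Pnpla2 higher). With 1 dose it called Angptl4 in LFD mice, against 0.749%, and none in HFD (0.00700%, with 2 at an unadjusted p under 0.05) or MCD mice (0.0280%, with 1), where DESeq2 also called 0. Among vehicle libraries it called Angptl4 lower on HFD in the repeated regimen, against 6.64%. It called none on MCD there (3.48%, with 1 at an unadjusted p under 0.05 and 1, Angptl4, by DESeq2). In single-regimen vehicle libraries it called none on HFD (1.64%, with 1 at an unadjusted p under 0.05) or MCD (0.476%, with 0), and DESeq2 called 0. The set was chosen by the HFD minus LFD difference of the PERC effect in these libraries. Counts that use HFD or LFD libraries are therefore not independent of that choice.

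**Figure D4:**
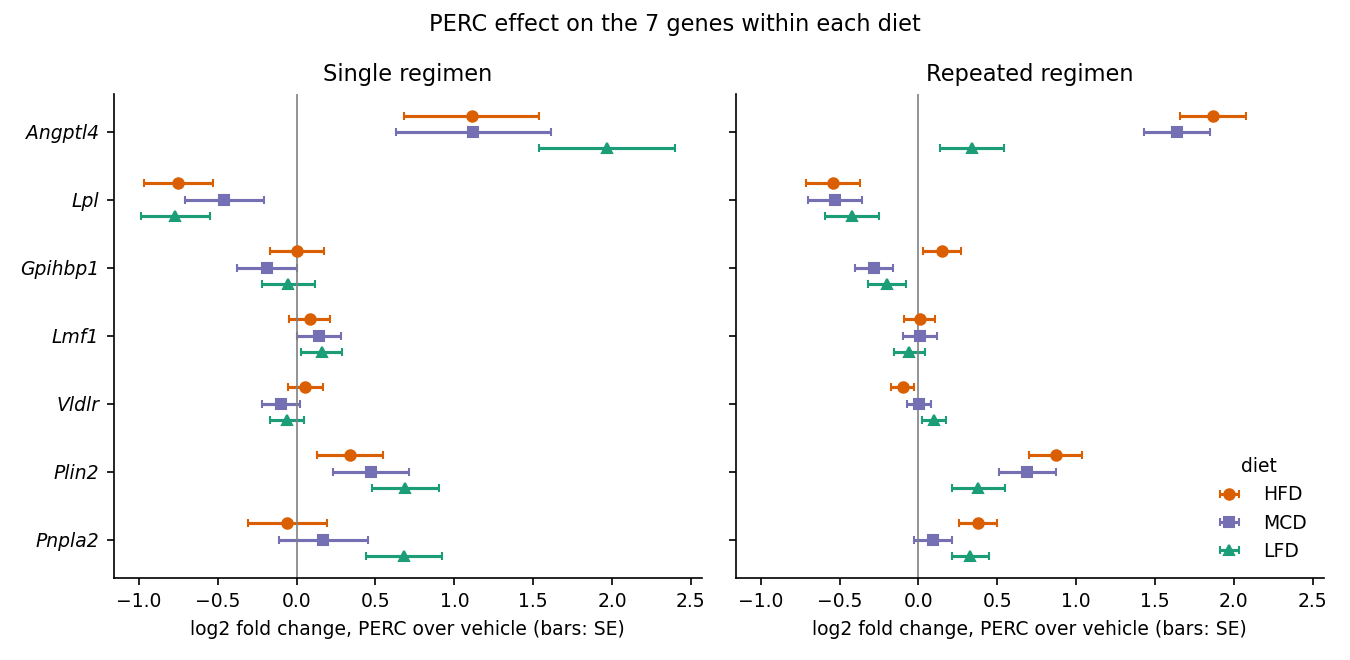
PERC effect (log2 fold change, PERC over vehicle) on each of the 7 genes within HFD, MCD and LFD mice, with bars of 1 SE either side, single regimen on the left and repeated on the right. Angptl4 and Plin2 lie right of 0 and Lpl left of 0 in all 6 comparisons, while Lmf1 and Vldlr stay within 0.16 of 0.

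Over the 47 repeated libraries, log2 levels of Angptl4 and Plin2 had a Pearson r of 0.73 (0.69 with group means removed), and Angptl4 and Lpl one of -0.64 (-0.45 with group means removed). Without the library that went against its label, the values with group means removed were 0.68 and -0.39. Over the 25 single libraries the same pairs had r values of 0.88 and -0.55 (0.76 and 0.017 with group means removed). In both regimens Lmf1 and Vldlr ran against each other, with r of -0.62 over the repeated and -0.79 over the single libraries. With group means removed these were -0.63 and -0.84, and the repeated one was -0.62 without the library that went against its label. These are descriptions of libraries that share diets, treatments and lanes.

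**Figure D5:**
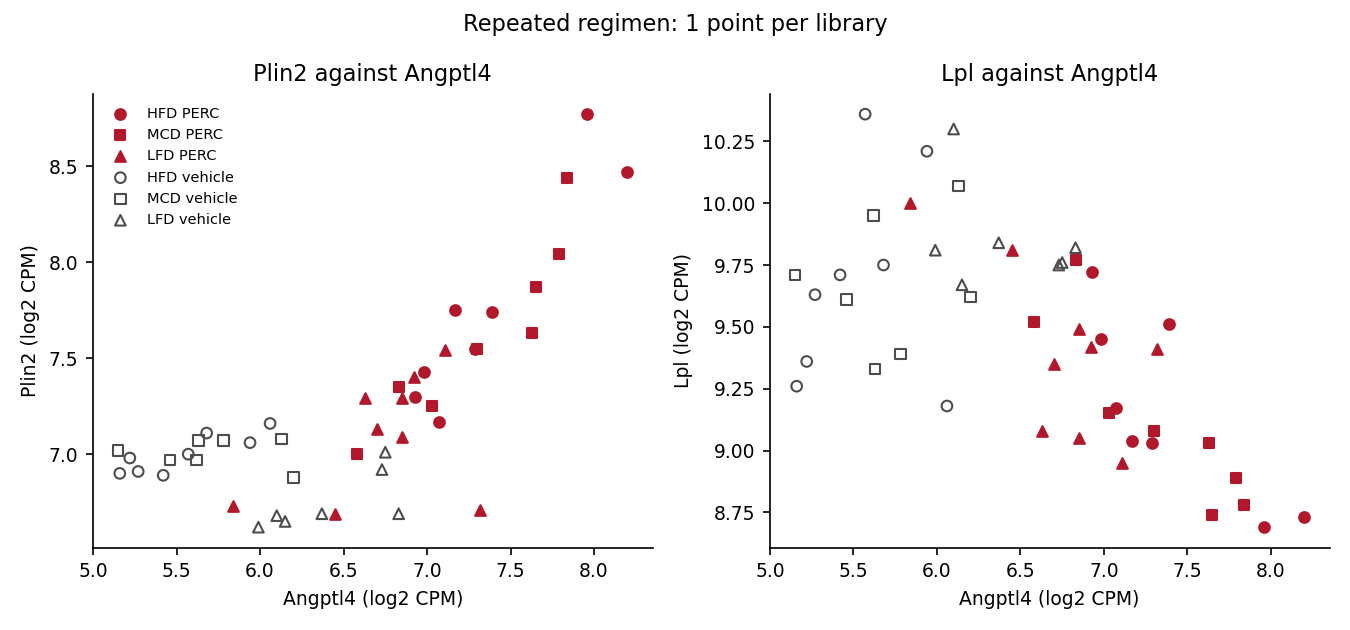
Plin2 (left) and Lpl (right) against Angptl4, both in log2 CPM, in the 47 repeated-regimen libraries. Each point is a library, filled for PERC and open for vehicle, with symbols for diet. Plin2 climbs with Angptl4 (r = 0.73) and Lpl descends (r = -0.64), and the HFD and MCD PERC libraries reach furthest.

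The 5 genes whose log2 levels were most like that of Angptl4 over the 47 repeated libraries were Gm15441 (r = 0.92), Mgll (0.90), Retsat (0.88), Acot1 (0.88) and Cyp4a10 (0.88). Over the 25 single libraries their r values were 0.84, 0.58, 0.71, 0.83 and 0.78. Mgll encodes monoglyceride lipase, Retsat retinol saturase, Acot1 an acyl-CoA thioesterase and Cyp4a10 a fatty acid hydroxylase. Gm15441 is annotated antisense to Txnip, and since the strand setting of the counting was not given, reads of the pair cannot be told apart. Acot1 and Cyp4a10 have near-identical family members, so their counts are uncertain.

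A list of 20 genes held other lipases, regulators of lipase activity and genes of lipoprotein uptake, and 17 were tested. Of these, Lipa was lower with repeated PERC in HFD and MCD mice, and Pcsk5 in HFD mice. Lipa, the lysosomal acid lipase gene, fell by 0.40 (SE 0.10, edgeR adjusted p = 0.00583) in HFD and by 0.32 (SE 0.10, edgeR adjusted p = 0.0494) in MCD mice, and Pcsk5, a proprotein convertase gene, fell by 0.21 in HFD mice (SE 0.063, edgeR adjusted p = 0.0220). Thus 2 of 17 were called lower in HFD and 1 in MCD mice, beside 9.18% and 5.10% of all genes called in either direction. In LFD mice, with 6.91% of all genes called, 0 of 17 were called lower by edgeR and 0 by DESeq2 (6 at an unadjusted p under 0.05 in either direction), and 2 by edgeR without the library that went against its label. The list's median log2 fold change was 0.021 in HFD, 0.014 in MCD and -0.0087 in LFD mice, beside 0.0048, 0.0061 and 0.00039 over all genes. Cd36, the fatty acid transporter gene, was higher in vehicle mice on HFD than on LFD, at 932 ± 109.7 CPM (SD, n = 8) against 570.1 ± 85.5 CPM (SD, n = 7), a log2 fold change of 0.72 (SE 0.15, edgeR adjusted p = 0.000842).

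Of 23 genes of lipid droplets and triglyceride turnover, all tested, repeated PERC raised 8 and lowered 1 in HFD mice, raised 5 and lowered 1 in MCD mice, and raised 8 in LFD mice (10 raised and 1 lowered without the library that went against its label). Beside these counts, 9.18%, 5.10% and 6.91% of all genes were called in either direction in HFD, MCD and LFD mice. The list's median log2 fold changes were 0.29, 0.15 and 0.28. Mgll had a log2 fold change of 1.02 (SE 0.12, edgeR adjusted p = 3.13e-08) in HFD and 0.91 (SE 0.12, edgeR adjusted p = 9.60e-07) in MCD mice. Mgll was also among the 8 genes called higher in LFD mice. Acsl1, an acyl-CoA synthetase gene, rose by 1.29, 1.09 and 0.95 in HFD, MCD and LFD mice (edgeR adjusted p = 5.32e-08, 5.61e-06 and 5.68e-05). Plin5, a droplet coat gene of oxidative tissue, rose by 1.37 in HFD and 0.85 in MCD mice (edgeR adjusted p = 7.13e-05 and 0.0272). In LFD mice the 8 calls included Cidec and Plin1, named here after their values were seen because the adipocyte list also holds them, and in that comparison 5 of 11 adipocyte markers were called higher (7 without that library), while 2 were in HFD and 1 in MCD mice. Lipe, also on both lists, was called higher in HFD and MCD mice. The adipocyte sum had a lowest, median and highest level of 173, 242 and 635 CPM in LFD PERC libraries, against 124, 166 and 201 CPM in LFD vehicle libraries. On HFD this sum was 163, 275 and 674 CPM with PERC, against 109.1, 211 and 305 CPM with vehicle. On MCD it was 181, 269 and 299 CPM with PERC, against 125.2, 219.7 and 257 CPM with vehicle. Its part in the list's counts was not tested.

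Known PPARA targets, 20 genes beside the members with 19 tested, rose in all 3 diets. Repeated PERC raised 17 of 19 in HFD, 16 in MCD and 17 in LFD mice (17 also without the library that went against its label) and lowered none, with median log2 fold changes of 1.39, 1.39 and 0.82. In the same comparisons 9.18%, 5.10% and 6.91% of all genes were called in either direction. As a description, the HFD minus LFD difference lay above 0 for 19 of 19, with a median of 0.37, beside 1.53 for Angptl4. The LFD median of 0.82, the count of 19 of 19 and the median of 0.37 include the library that went against its label. That library was noticed by its low level of Cyp4a14, a gene of this list, and these values are not given without it. After a single dose edgeR called none of the 19 in HFD mice (13 at an unadjusted p under 0.05, 3 by DESeq2), 3 in MCD mice (10 by DESeq2) and 13 in LFD mice (17 by DESeq2), with medians of 0.63, 0.96 and 1.26, and the HFD minus LFD difference lay above 0 for 0 of 19, with a median of -0.58. Over all genes edgeR called 0.00700% in HFD, 0.0280% in MCD and 0.749% in LFD mice after that dose. In repeated HFD mice Pdk4, the pyruvate dehydrogenase kinase gene, had a log2 fold change of 3.56 (SE 0.41, edgeR adjusted p = 5.31e-08) and Ucp2, a mitochondrial carrier gene, one of 1.87 (SE 0.19, edgeR adjusted p = 5.02e-09). Both genes were also called higher in repeated MCD and LFD mice.

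Hypoxia response genes, 14 tested, moved both ways. In repeated HFD mice 2 were called higher and 1 lower: Ndrg1 at 0.76 (SE 0.14, edgeR adjusted p = 0.000147), Adm, the adrenomedullin gene, at 0.74 (SE 0.16, edgeR adjusted p = 0.000976) and Car9, a carbonic anhydrase gene, at -0.88 (SE 0.17, edgeR adjusted p = 0.000347). The same 3 genes were called in the same directions in MCD mice, and 2 of the 14 were called higher and 1 lower in LFD mice (3 and 3 without the library that went against its label). Of 11 glucocorticoid response genes, Sgk1, a kinase gene, rose by 1.39 (SE 0.25, edgeR adjusted p = 0.000152) and Fkbp5, a chaperone gene, by 1.20 (SE 0.30, edgeR adjusted p = 0.00678) in repeated HFD mice. In repeated MCD mice Sgk1 rose by 1.10 (edgeR adjusted p = 0.00613) and Errfi1 fell by 0.51 (SE 0.13, edgeR adjusted p = 0.0111). In repeated LFD mice edgeR called none of the 11 (1 at an unadjusted p under 0.05, 0 by DESeq2), or 1 without the library that went against its label. The median log2 fold change was 0.45 in HFD, 0.17 in MCD and 0.043 in LFD mice. Counts of both lists stand beside 9.18%, 5.10% and 6.91% of all genes called in either direction in repeated HFD, MCD and LFD mice. The part of each list's regulators in the Angptl4 values was not tested.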

How the data were processed

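Kidney mRNA was sequenced from 78 labelled samples, 12 groups in all. The authors deposited whole-number read counts per gene symbol, 1 table per library, with no normalization. Libraries came from a stranded mRNA kit, per the labels' protocols, and the submitters' processing notes list, without roles, GRCm38 (mm10), HTSeq, TopHat2 2.0.13, DESeq2, Trimmomatic and bcl2fastq 2.17.1.14. The sources used here name no annotation and no strand setting. Of the 78 samples, 77 were read, and 1 MCD repeated vehicle sample was not analysed here. Replicate numbers follow accession order and pair nothing. Lanes were read from the tables' names. The labels put 9 LFD PERC and 7 LFD vehicle samples in the repeated regimen, where the series states 8 each. The library that went against its label is among those 9, and whether it was a vehicle sample was not tested. The labels do not say that libraries came from separate animals, so p-values cover only the spread among these libraries, which may be technical.

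Libraries under 1000000 counts in genes were left out. Reads with no gene (median 46.8% of a library) stayed out of all sizes. Per regimen, edgeR 4.0.16 (R 4.3.3) fitted 6 group means after filterByExpr and TMM scaling, with the quasi-likelihood F test and Benjamini-Hochberg adjustment over all tested genes, called at 0.05. SE is the size of the log2 fold change over the square root of F. CPM used TMM factors over the 72 libraries, and log2 CPM a prior count of 2. Tested on simulated counts, a log2 change of 1 was called for 96.9% of changed genes in the repeated HFD comparison (14509 genes) and 92% in the single one (14113 genes). The simulation gave every gene the same spread in both regimens. The common coefficient of variation fitted to the real counts was 0.157 in the repeated and 0.191 in the single regimen. These shares therefore do not tell how often a change was missed in genes of wider spread. Alternatives were RLE factors, no filter, low-depth libraries kept, lane, adipocyte marker level, only the groups compared, DESeq2 1.42.0 and leaving out each library. Lane with adipocyte level, and the mean over diets, were added after the data were seen. Named genes were the 7 members, up to 4 genes of each list by adjusted p in a comparison, and the 5 most like Angptl4. Members and lists were chosen with earlier results of these data known. One result of the list of lipase regulators is not reported here.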

Additional observations from a re-analysis of the deposited data

Results flagged for a closer look

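Of 77 sets of values (1 gene in 1 group of 4 to 10 libraries), 4 held a library far from the rest, and chance gives about 1 in 20. Angptl4 was 67.7 CPM in HFD vehicle replicate 4 of the single regimen, against 41.8 to 44.2 CPM in the other 3 libraries. Lpl was 1259 CPM in LFD vehicle replicate 6 of the repeated regimen, where the other 6 libraries held 814 to 919 CPM. Vldlr was 170.4 CPM in LFD PERC replicate 5 of the single regimen, where the other 3 held 129.3 to 134.9 CPM. Vldlr was also 176 CPM in LFD vehicle replicate 4 of the single regimen, where the other 4 held 134.1 to 146.3 CPM.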

How the results depend on the processing

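The Angptl4 calls with repeated PERC in HFD and MCD mice, and on HFD among repeated vehicle libraries, were kept under every alternative run. The number of the 7 genes called moved elsewhere. For single LFD PERC, 1 gene was called, 0 with no filter, 0 with the adipocyte covariate, 0 with only the groups compared, 2 with DESeq2, and 0 to 2 when 1 library was left out. For repeated HFD PERC, 4 were called, 3 with no filter, 3 with the adipocyte covariate, 2 with only the groups compared and 2 to 4 over leave-outs. For repeated MCD PERC, 2 were called, 3 with lane, 3 with lane and adipocyte level together, 3 with DESeq2, and 1 to 3 over leave-outs; for repeated LFD PERC, 0, and 0 to 2. Among repeated vehicle libraries, HFD gave 1, and 2 with only the groups compared; MCD gave 0, 1 with lane, 2 with only the groups compared, 1 with DESeq2 and 0 to 1 over leave-outs. The MCD minus LFD effect difference in the repeated regimen gave 0, and 1 with DESeq2. The single HFD minus LFD difference for Angptl4, -0.87, was -0.17 with lane and adipocyte level together, an alternative chosen after seeing the data. No value changed sign where called. The causes were not tested. No paired analysis was possible because replicate numbers follow accession order only.

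The single regimen had 3 to 5 libraries a group, and the sources used here give no time of death for its vehicle mice.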
